A study of Mus musculus with 12 samples.

Results

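Kruppel-like factors (KLFs) are zinc-finger transcription factors that bind GC-rich and CACCC-type elements in promoters and either activate or repress the genes they control. Expression of 10 KLF genes was examined in bone marrow-derived macrophages (BMDMs) of mice that lack inducible nitric oxide synthase: Klf2, Klf3, Klf4, Klf5, Klf6, Klf7, Klf9, Klf10, Klf11 and Klf13. These 10 were chosen by name, with earlier results of these data known. They are 10 of the 18193 genes that the array measured with at least 1 probe set naming a single gene. All 10 were measured, with 34 probe sets in all, and no filter on low signals was applied. A gene with several probe sets was represented by the one with the highest mean over all arrays, and the remaining probe sets are described beside it.

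The study compared Nos2-/- mice (B6.129P2-Nos2tm1Lau/J) with WT mice (C57BL/6), 6 to 10 weeks old and matched for age and sex per the methods. Bone marrow cells of both genotypes were grown in M-CSF, and the macrophages were then stimulated for 8 h with LPS at 100 ng/mL and IFNγ at 50 ng/mL or were left untreated. LPS is a bacterial Toll-like receptor ligand, IFNγ a T and NK cell cytokine, and the pair drives macrophages into the inflammatory state known as M1. There were 3 arrays, labelled as biological replicates, for each of 4 groups: Nos2-/- stimulated, WT stimulated, Nos2-/- untreated and WT untreated. The untreated arrays are described in the methods as vehicle for the same time and in the labels as taken before stimulation. The Nos2 deletion is constitutive, so it was present throughout the growth of the cells and not only during stimulation. Nothing in the sources ties an array to 1 mouse, and p-values measure the spread between these arrays.

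The Nos2 probe set averaged 7.69 ± 0.22 in stimulated Nos2-/- and 9.72 ± 0.09 in stimulated WT macrophages, against 5.31 ± 0.14 in untreated Nos2-/- and 5.50 ± 0.14 in untreated WT macrophages (log2 signal, mean ± SD, n = 3). Whether that probe set lies inside the deleted part is not stated, so it is no check of the genotype labels. A list of 7 macrophage markers had a mean log2 signal between 12.1 and 12.3 on every array, and no marker of the list differed between stimulated Nos2-/- and stimulated WT. With stimulation 5 of the 7 were lower and 1 was higher in each genotype, among them Cd68, which fell by 0.91 in Nos2-/- and 0.87 in WT macrophages, and Fcgr1, which rose by 1.27 in Nos2-/- and 1.24 in WT macrophages. Markers of other cells also moved: the mean of 7 neutrophil markers was 7.59 to 7.84 in stimulated Nos2-/- and 7.54 to 7.69 in stimulated WT, against 6.75 to 7.25 in untreated Nos2-/- and 6.63 to 7.07 in untreated WT macrophages. Of these 7, 3 rose in each genotype. The mean of 5 markers of endothelium, a cell type rich in KLF2 and KLF4, was 5.17 to 5.43 in stimulated Nos2-/- and 5.26 to 5.28 in stimulated WT, against 4.59 to 4.66 in untreated Nos2-/- and 4.57 to 4.62 in untreated WT macrophages, with 2 of the 5 higher in Nos2-/- and 3 in WT macrophages. That of 4 dendritic cell markers was 5.89 to 5.95 in stimulated Nos2-/- and 5.66 to 5.95 in stimulated WT, against 4.98 to 5.06 in untreated Nos2-/- and 4.88 to 4.95 in untreated WT macrophages. Of these 4, 1 rose in Nos2-/- and 3 in WT macrophages. The largest change was that of Ccr7, 3.31 in Nos2-/- and 2.92 in WT, beside list medians of 0.12 and 0.33. Among endothelial markers it was that of Pecam1, 1.49 in Nos2-/- and 1.64 in WT, beside medians of 0.25 and 0.17. Among neutrophil markers it was that of S100a8, 3.57 in Nos2-/- and 3.39 in WT, beside medians of 0.46 and 0.29. Lists for B cells, T and NK cells, mast cells, fibroblasts and erythroid cells had means of 3.81 to 5.29 on all arrays. The part of these markers in the KLF results was not tested. In bulk RNA, fewer cells of a type and less of a transcript per cell cannot be told apart.

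In myeloid cells KLF2 and KLF4 are known as restraints on inflammatory gene expression, and KLF4 also acts with STAT6 in alternative activation. KLF6 and KLF7 act mostly as activators, and KLF6 is known to favour inflammatory macrophage activation. KLF3 is a repressor that recruits the corepressor CtBP, and KLF10, KLF11, KLF9 and KLF13 repress through SIN3A. KLF9 is a classical glucocorticoid-induced gene, and KLF10 and KLF11 were named as early genes of the TGF-beta response. KLF5 is best known from epithelia and smooth muscle.

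The promoters are shown for the genes on which the results turn. Klf2 and Klf4 fell with stimulation, and Klf2, Klf3 and Klf9 differed between genotypes. Each sequence is the 250 bases before the RefSeq transcription start in the mouse build GRCm38.p6, 5′ to 3′ on the gene's strand. Capitals mark matches to any of 5 searched motifs on either strand: the MEF2 motif (CTA, any 4 bases, TAG), the GC box GGGCGG, the CACCC box CCACCC, the AP-1 motif TGANTCA and the NF-kB motif (GGG, any 2 bases, TTTCC). On the opposite strand a GC box reads CCGCCC and a CACCC box GGGTGG.
Klf2, chr8:72318812-72319061 (+): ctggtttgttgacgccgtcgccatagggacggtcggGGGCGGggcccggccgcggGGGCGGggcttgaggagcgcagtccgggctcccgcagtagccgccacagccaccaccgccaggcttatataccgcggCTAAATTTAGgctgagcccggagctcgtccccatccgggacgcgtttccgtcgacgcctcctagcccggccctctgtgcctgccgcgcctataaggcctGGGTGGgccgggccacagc
Klf4, chr4:55532476-55532725 (-): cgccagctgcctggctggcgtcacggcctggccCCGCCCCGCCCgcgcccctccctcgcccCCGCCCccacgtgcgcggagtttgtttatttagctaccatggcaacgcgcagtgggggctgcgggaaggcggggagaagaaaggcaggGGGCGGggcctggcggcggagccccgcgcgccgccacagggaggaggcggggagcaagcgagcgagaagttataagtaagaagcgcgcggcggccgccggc
Klf3, chr5:64803271-64803520 (+): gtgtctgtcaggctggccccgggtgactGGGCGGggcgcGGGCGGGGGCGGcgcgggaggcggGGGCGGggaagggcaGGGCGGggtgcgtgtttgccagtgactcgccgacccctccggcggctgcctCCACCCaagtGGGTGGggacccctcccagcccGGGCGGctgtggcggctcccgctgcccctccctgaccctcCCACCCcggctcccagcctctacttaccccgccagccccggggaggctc
Klf9, chr19:23140976-23141225 (+): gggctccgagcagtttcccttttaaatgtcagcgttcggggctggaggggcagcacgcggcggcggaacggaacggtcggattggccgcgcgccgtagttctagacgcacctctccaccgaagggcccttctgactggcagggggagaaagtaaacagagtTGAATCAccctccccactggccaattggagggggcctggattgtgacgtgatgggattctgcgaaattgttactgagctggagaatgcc
The matches were counted over 300-base windows that also held the first 50 bases of the transcript, and 8 of the 10 genes had one. The MEF2 motif occurred in 3.69% of 32851 such windows and in 1 of the 8, that of Klf2, where it reads CTAAATTTAG at positions -118 to -109 from the start. The 8 windows were 58.3% to 77.7% G or C, all above the median of 52.7% over all windows. The GC box occurred in 35.7% of windows and in 7 of the 8, with Klf9 as the exception. Klf9 had instead a match to the AP-1 letters searched (7.81% of windows), which none of the others had. This match reads TGAATCA, and the letters searched allow any base in the middle. CACCC boxes occurred in 31.5% of windows and in those of Klf2, Klf3, Klf7 and Klf13, and in Klf13 a CACCC match overlapped a GC box. The NF-kB letters occurred in 1.63% of windows and in none of the 8. Such matches describe the sequence and do not show that a factor binds.

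Stimulation lowered Klf2, Klf4, Klf10 and Klf9 and raised Klf7, Klf6 and Klf13 in both genotypes. For the probe set used, Klf3 rose in Nos2-/- macrophages, with a value of -0.02 in WT macrophages, and Klf11 fell in WT macrophages, with a value of 0.01 in Nos2-/- macrophages. The test was limma, a linear model with a moderated spread fitted to all genes, and a gene passed where its p, adjusted by the Benjamini-Hochberg method over all genes, was under 0.05. In Nos2-/- macrophages 4 of the 10 rose and 4 fell, where 26.3% of all genes rose and 28.2% fell, 54.5% together. In WT macrophages 3 of the 10 rose and 5 fell, where 29.6% of all genes rose and 28.4% fell, 58.0% together. Most genes on the array passed in these comparisons, so the counts describe the 10 genes and are not particular to them. The median change of the 10 genes was 0.02 in Nos2-/- and -0.10 in WT macrophages (log2), beside 0.05 and 0.07 over all genes.

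**Figure D1:**
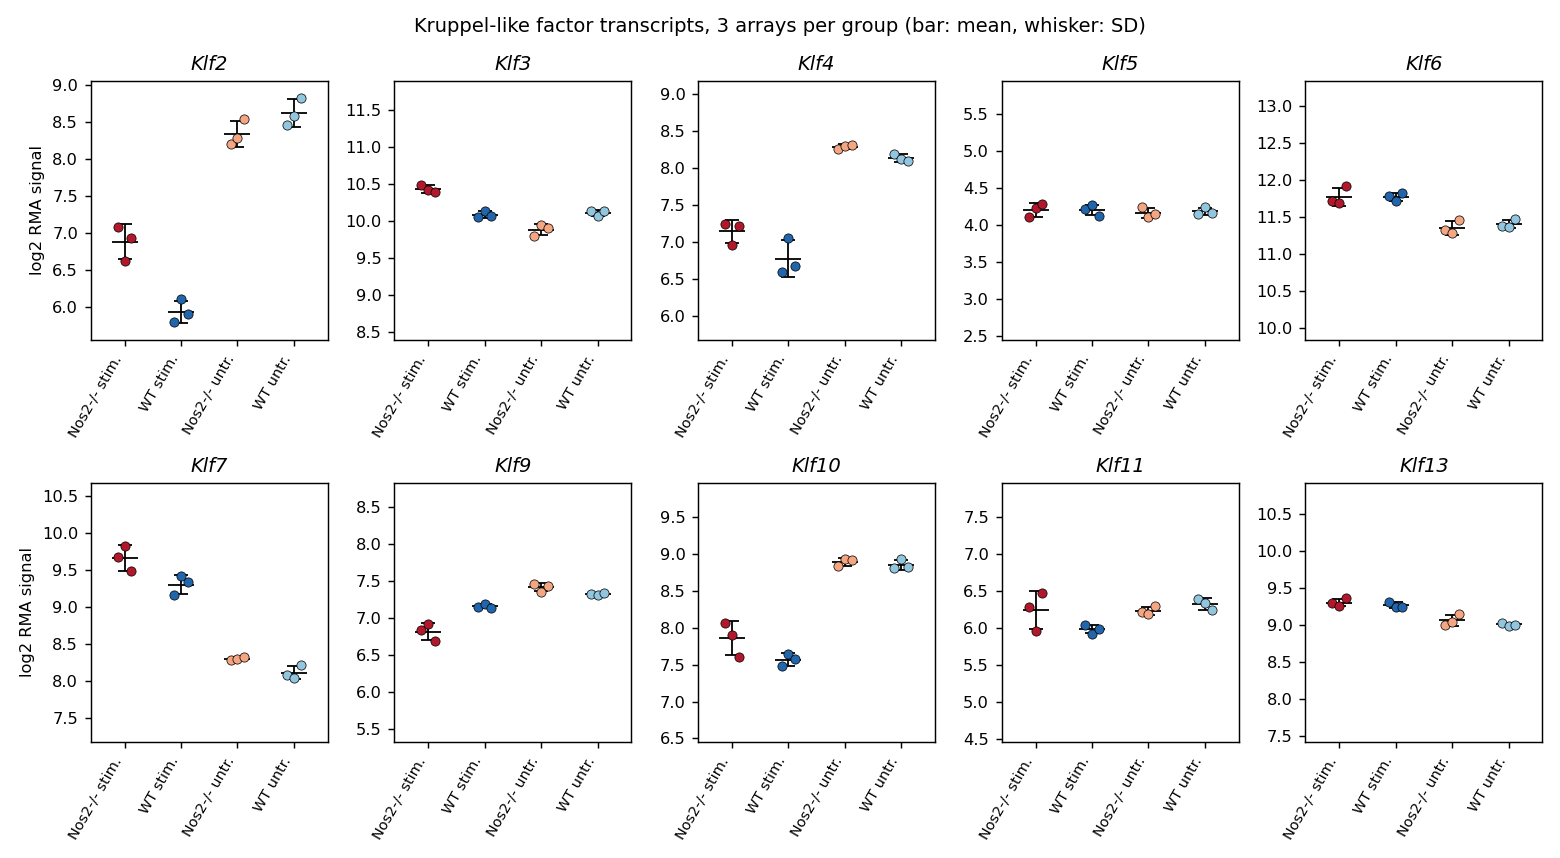
Log2 RMA signal of each gene (vertical axis) on every array, in Nos2-/- stimulated, WT stimulated, Nos2-/- untreated and WT untreated macrophages (horizontal axis). Points are arrays, the long bar is the mean of 3 and the whisker its SD. Every panel spans the same number of log2 units. Klf2 had the widest spread between groups, with group means from 5.93 to 8.62, and Klf5 lay between 4.11 and 4.29 on all arrays.

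With the probe sets used for the genes, Klf2 had the largest fall of the 10 in either genotype, and 2 other probe sets, of Klf9, fell more in Nos2-/- macrophages (1.57 and 1.59 on the log2 scale). Its signal was 7.08, 6.62 and 6.93 in stimulated Nos2-/- macrophages, against 8.20, 8.28 and 8.54 in untreated Nos2-/- macrophages. In stimulated WT macrophages it was 5.80, 6.10 and 5.90, against 8.46, 8.58 and 8.82 in untreated WT macrophages. No array of a stimulated group overlapped the untreated group of its genotype, and the stimulated WT arrays were the lowest of all 12. The fall was 2.75-fold in Nos2-/- (log2 -1.46 ± 0.13 SE, adjusted p = 2.62e-07) and 6.45-fold in WT macrophages (log2 -2.69 ± 0.13, adjusted p = 4.74e-10).

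Klf4, the closest relative of Klf2 among these genes, also fell in both genotypes. Its signal was 7.24, 6.96 and 7.22 in stimulated Nos2-/-, against 8.25, 8.30 and 8.31 in untreated Nos2-/- macrophages. In stimulated WT it was 6.59, 7.05 and 6.68, against 8.19, 8.13 and 8.09 in untreated WT macrophages. All stimulated arrays lay below all untreated ones, and the stimulated groups of the genotypes overlapped through WT replicate 2. The fall was 2.21-fold in Nos2-/- (adjusted p = 4.12e-07) and 2.57-fold in WT macrophages (adjusted p = 7.14e-08), and the second Klf4 probe set fell as well, by 0.85 in Nos2-/- and by 1.02 in WT macrophages on the log2 scale. The difference in response was 0.22 (95% CI -0.11 to 0.54) and did not pass (adjusted p = 0.681).

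Klf10, a TGF-beta-induced repressor, fell in both genotypes as well. It had 8.06, 7.90 and 7.61 in stimulated Nos2-/-, against 8.83, 8.92 and 8.92 in untreated Nos2-/- macrophages. Stimulated WT macrophages had 7.47, 7.65 and 7.58, against 8.80, 8.93 and 8.82 in untreated WT macrophages. The untreated groups of the genotypes were interleaved, and stimulation lowered every array below them, by 2.05-fold in Nos2-/- (adjusted p = 4.15e-07) and 2.44-fold in WT macrophages (adjusted p = 4.46e-08), with a difference in response of 0.25 (95% CI -0.04 to 0.55). Its relative Klf11 had 6.28, 5.96 and 6.48 in stimulated Nos2-/-, against 6.22, 6.19 and 6.29 in untreated Nos2-/- macrophages, and 6.03, 5.92 and 5.98 in stimulated WT, against 6.39, 6.34 and 6.24 in untreated WT macrophages. Klf11 thus fell in WT (log2 -0.35 ± 0.10, adjusted p = 0.011) and changed by 0.01 in Nos2-/- macrophages (95% CI -0.22 to 0.23). The WT call was lost when arrays were centred on their medians (-0.24, adjusted p = 0.054) or quantile normalized (-0.19, adjusted p = 0.184), and the difference between the 2 responses did not pass the test (0.35, 95% CI 0.04 to 0.67, adjusted p = 0.424).

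Klf7 had the largest rise of the 10 genes in either genotype with the probe sets used. It had 9.69, 9.83 and 9.49 in stimulated Nos2-/-, against 8.29, 8.31 and 8.33 in untreated Nos2-/- macrophages. Stimulated WT macrophages had 9.16, 9.42 and 9.34, against 8.08, 8.05 and 8.22 in untreated WT macrophages. All 4 Klf7 probe sets rose in both genotypes, by 1.36 to 1.66 in Nos2-/- and by 1.19 to 1.46 in WT macrophages on the log2 scale, where 51.4% of all single-gene probe sets passed in either direction in Nos2-/- and 54.0% in WT macrophages. For the probe set used, this was 2.57-fold in Nos2-/- (adjusted p = 1.18e-08) and 2.29-fold in WT macrophages (adjusted p = 5.18e-08), with a difference in response of 0.17 (95% CI -0.11 to 0.44).

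Klf6 rose less, by 0.42 in Nos2-/- and 0.37 in WT macrophages, with a difference in response of 0.05 (95% CI -0.18 to 0.28). It had 11.71, 11.69 and 11.91 in stimulated Nos2-/- and 11.78, 11.71 and 11.82 in stimulated WT, against 11.32, 11.28 and 11.46 in untreated Nos2-/- and 11.38, 11.36 and 11.47 in untreated WT macrophages. The 5 Klf6 probe sets all passed the test upward in both genotypes, by 0.42 to 0.83 in Nos2-/- and by 0.30 to 0.61 in WT macrophages (log2). The share of all single-gene probe sets that passed in either direction was 51.4% in Nos2-/- and 54.0% in WT macrophages. Klf13, an activator of the chemokine gene Ccl5 in T cells, rose by 0.24 ± 0.06 in Nos2-/- (adjusted p = 0.00441) and by 0.26 ± 0.06 in WT macrophages (adjusted p = 0.00244). Its other 2 probe sets had values of 0.12 to 0.23 that did not pass. Klf5 had group means of 4.17 to 4.21, and its change was 0.04 in Nos2-/- (95% CI -0.11 to 0.18) and 0.02 in WT macrophages (95% CI -0.13 to 0.17). Another Klf5 probe set was lower in stimulated WT macrophages by 0.18 (adjusted p = 0.0447).

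**Figure D2:**
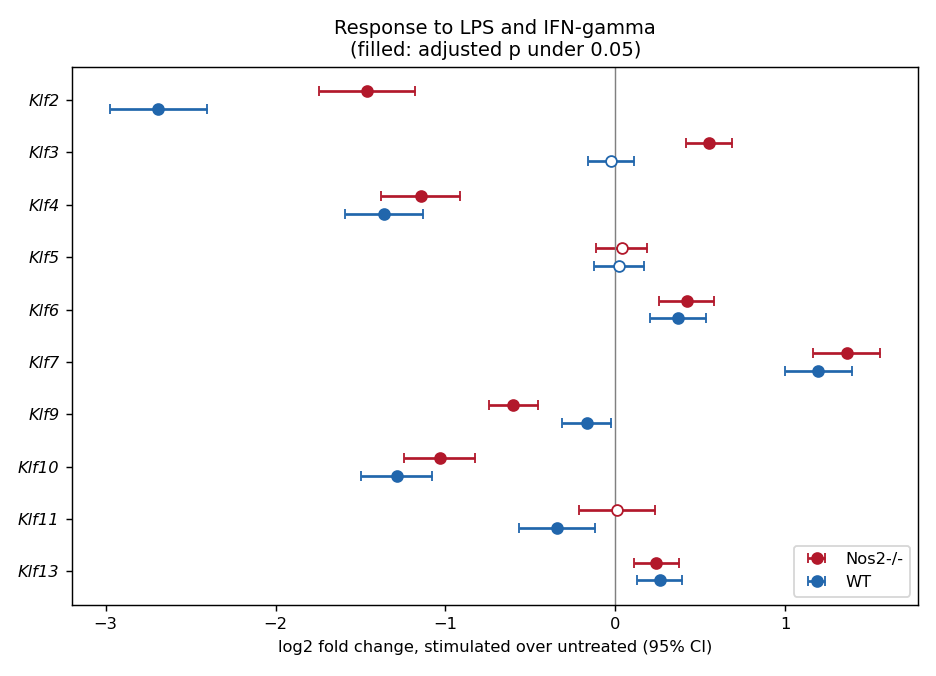
Change with LPS and IFNγ (horizontal axis, log2 stimulated over untreated) for each gene, with Nos2-/- above WT. Points are limma estimates, whiskers are 95% confidence intervals and filled points passed an adjusted p of 0.05. The Klf2 estimates, -1.46 in Nos2-/- and -2.69 in WT, and the Klf3 estimates, 0.55 in Nos2-/- and -0.02 in WT, have intervals that stay apart. So do the Klf9 estimates, -0.60 in Nos2-/- and -0.17 in WT, although its difference in response did not pass.

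Before stimulation the genotypes differed little. With limma 0 of the 10 genes passed, against 0.0110% of all genes, and at an unadjusted p under 0.05 there was 1, Klf3, which was lower in untreated Nos2-/- macrophages by 0.23 (unadjusted p = 0.00263, adjusted p = 1). The arrays of the 2 untreated groups did not overlap for 4 of the 10 genes, Klf3 lower and Klf4, Klf7 and Klf9 higher in Nos2-/-, against 12.6% of all genes. The sizes were between -0.28 and 0.19. The value of Klf2 was -0.28 (95% CI -0.56 to 0.0008), and that of Klf7 was 0.19 (95% CI -0.0035 to 0.39).

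After stimulation Klf2 and Klf3 were higher and Klf9 was lower in Nos2-/- than in WT macrophages. These were 3 of the 10 genes, 2 higher and 1 lower, against 2.94% of all genes called between the stimulated genotypes, 1.03% higher and 1.91% lower. The arrays did not overlap for 4 of the 10, the same 3 and Klf7, against 17.1% of all genes. Of the 10 estimates 8 were positive, with a median of 0.27 for the 10 and of -0.01 over all genes. The comparison shares its stimulated arrays with the responses above, so it is not a separate measurement. The 10 genes were chosen with earlier results of these data known, so their counts beside those of all genes are not a test. None of 6 other KLF genes measured passed between the stimulated genotypes.

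Klf2 had the largest such difference. The arrays given above were 6.62 to 7.08 in stimulated Nos2-/- and 5.80 to 6.10 in stimulated WT macrophages, 1.93-fold higher in Nos2-/- (95% CI 1.58 to 2.34, adjusted p = 0.000944). Its response differed between genotypes by 1.23 ± 0.19 on the log2 scale (95% CI 0.83 to 1.63, adjusted p = 0.00482), since the fall was smaller in Nos2-/- macrophages. Between the genotypes' responses 2 of the 10 genes passed, Klf2 and Klf3, both higher in Nos2-/-, against 0.978% of all genes in either direction and 0.302% higher. Without moderation of the spread, the Klf2 response difference had an adjusted p of 0.0654. A single probe set measured Klf2, so no second one was there to compare.

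In the probe set used, Klf3 was higher in Nos2-/- than in WT macrophages after stimulation, and its untreated difference did not pass. It had 10.49, 10.42 and 10.39 in stimulated Nos2-/- and 10.06, 10.14 and 10.07 in stimulated WT, against 9.80, 9.94 and 9.91 in untreated Nos2-/- and 10.13, 10.07 and 10.14 in untreated WT macrophages. The stimulated Nos2-/- arrays were the highest of the 12 and the untreated Nos2-/- arrays the lowest, and the 2 WT groups overlapped. In Nos2-/- macrophages this probe set rose 1.47-fold (log2 0.55 ± 0.06, adjusted p = 2.97e-06), and in WT macrophages it had a change of -0.02 that did not pass (95% CI -0.16 to 0.11). The response differed by 0.58 ± 0.09 (95% CI 0.39 to 0.77, adjusted p = 0.00514), made up of a stimulated difference of 0.35 and an untreated one of -0.23. Between the stimulated groups the adjusted p was 0.00665 with all arrays in the model and 0.0692 with the 2 groups alone.

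The 7 Klf3 probe sets all had higher values in Nos2-/- than in WT macrophages after stimulation, and 4 of them passed with every probe set tested, by 0.29 to 0.60. For comparison, 2.59% of all single-gene probe sets passed. The difference in response was positive in all 7, at 0.05 to 0.61, and passed in 2, against 0.793% of all single-gene probe sets. With stimulation 6 of the 7 rose in Nos2-/- macrophages, with values of 0.20 to 0.76 over the 7, and 2 rose in WT macrophages, with values of -0.10 to 0.29. Of all single-gene probe sets, 51.4% passed in either direction with stimulation in Nos2-/- and 54.0% in WT macrophages. Between the untreated groups none of the 7 passed, and 4 had positive values (-0.24 to 0.17), whereas that of the probe set used was negative. With the mean of the 7 probe sets in place of the brightest, the response difference was 0.36 (adjusted p = 0.0281).

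Klf9 went the other way. The probe set used had 6.84, 6.92 and 6.68 in stimulated Nos2-/- and 7.15, 7.18 and 7.12 in stimulated WT, against 7.45, 7.35 and 7.43 in untreated Nos2-/- and 7.32, 7.31 and 7.33 in untreated WT macrophages. Stimulated Nos2-/- arrays were thus the lowest of the 12. Klf9 was 1.26-fold lower in Nos2-/- than in WT macrophages after stimulation (log2 -0.34 ± 0.07, adjusted p = 0.0126), and the adjusted p was 0.0529 without WT stimulated replicate 2 and 0.119 with the 2 groups alone. It fell by 0.60 in Nos2-/- (adjusted p = 2.6e-06) and by 0.17 in WT macrophages (adjusted p = 0.0433). The WT fall was not called in 12 of 17 alternative settings, among them each of the 6 that left out 1 array, and had the opposite sign after quantile normalization (0.07). The difference in response, -0.43, had an adjusted p of 0.0508, and of 0.0277 without Nos2-/- stimulated replicate 2 (-0.48).

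A pair of other Klf9 probe sets with nearly the same mean signal showed larger changes. Probe set 1428288_at had 6.25, 5.96 and 6.10 in stimulated Nos2-/- and 6.86, 7.11 and 6.99 in stimulated WT, against 7.73, 7.63 and 7.68 in untreated Nos2-/- and 7.72, 7.76 and 7.61 in untreated WT macrophages. All stimulated Nos2-/- arrays lay below all stimulated WT arrays, which in turn lay below all untreated arrays. Here Klf9 was lower in stimulated Nos2-/- by 0.88 (adjusted p = 4.5e-05), and the fall with stimulation was 1.57 in Nos2-/- and 0.71 in WT macrophages, with a difference in response of -0.87 ± 0.12 (adjusted p = 0.00295, against 0.793% of probe sets called). Probe set 1456341_a_at had a stimulated difference of -0.78 and a difference in response of -0.88 (adjusted p = 0.00346). The remaining 4, with mean signals below 5, gave stimulated differences between -0.37 and -0.05 that did not pass, and 1 of them rose in WT macrophages by 0.26 (adjusted p = 0.0483). Another 2 of these 4, 1422264_s_at and 1436763_a_at, fell in both genotypes, by 0.60 and 0.64 in Nos2-/- and by 0.50 and 0.30 in WT macrophages. All 7 had negative values in both comparisons of the genotypes.

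**Figure D3:**
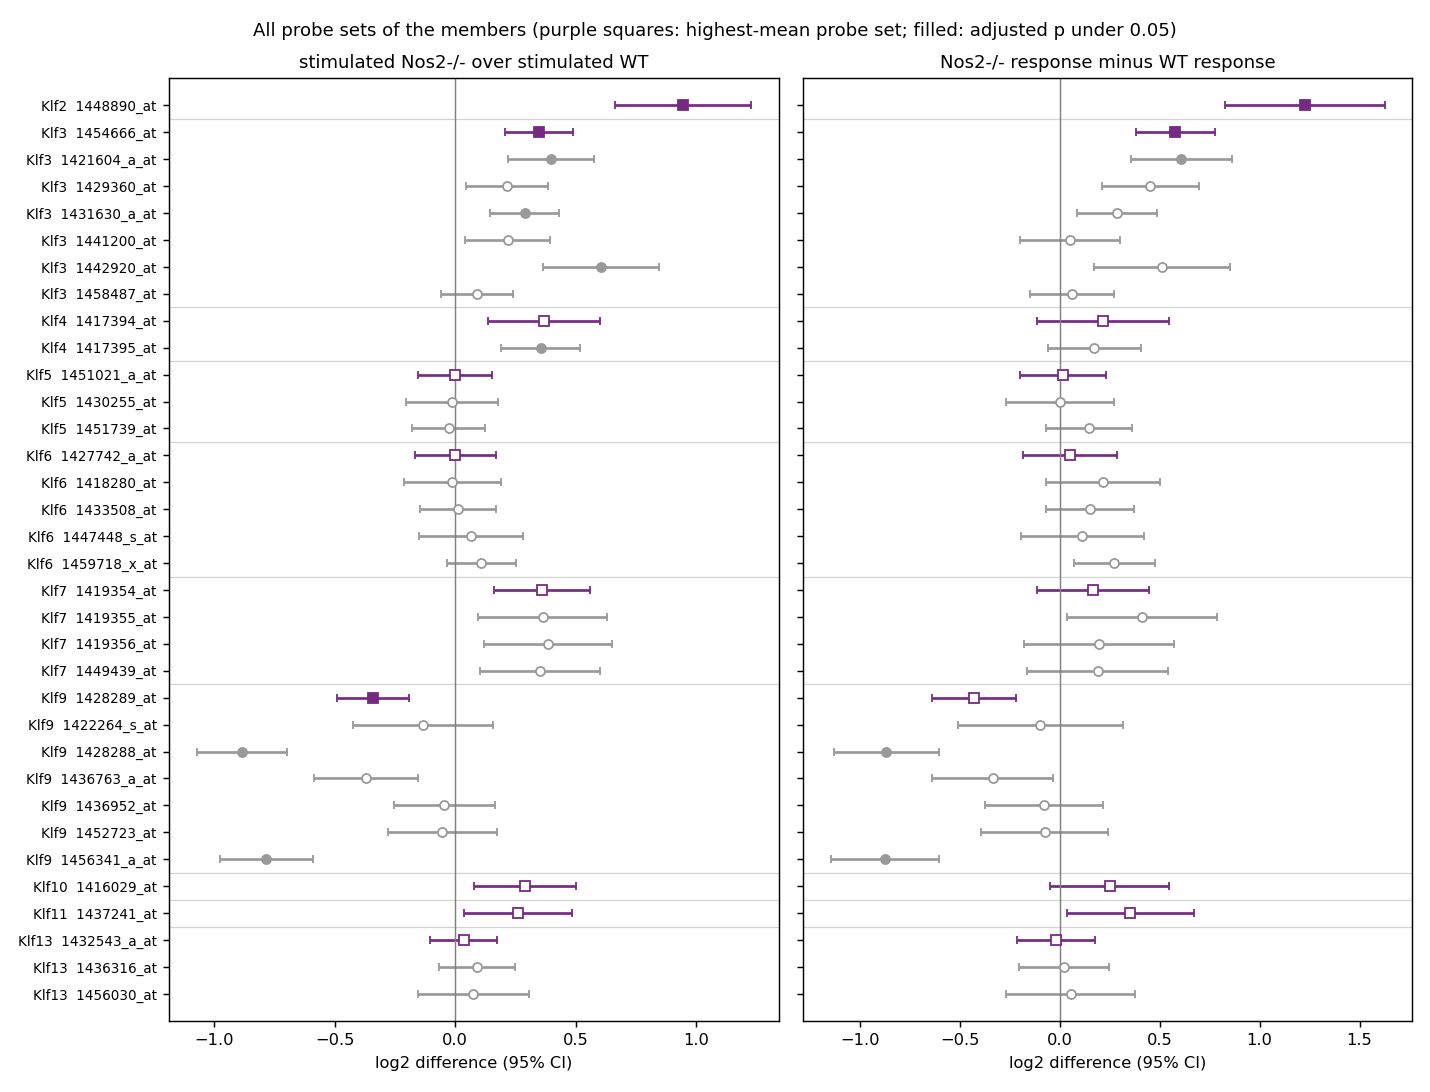
Each of the 34 probe sets of the 10 genes, with stimulated Nos2-/- over stimulated WT on the left and the Nos2-/- response minus the WT response on the right (horizontal axes, log2). Purple squares are the probe sets used for the genes, grey circles the others, whiskers 95% confidence intervals, and filled symbols passed with all single-gene probe sets tested. Klf3 points lie right of 0 and Klf9 points left of it, and probe sets 1428288_at and 1456341_a_at of Klf9 lie beyond -0.75.

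Klf4 and Klf7 were near the threshold in stimulated macrophages. Klf7 was higher in stimulated Nos2-/- by 0.36 (95% CI 0.16 to 0.56, adjusted p = 0.0539), with values of 0.35 to 0.38 in its 4 probe sets, none of which passed. Without Nos2-/- stimulated replicate 3 it passed (0.45, adjusted p = 0.0177). Klf4 had 0.37 (95% CI 0.14 to 0.60, adjusted p = 0.098), and its second probe set passed at 0.35 (adjusted p = 0.0232). Without WT stimulated replicate 2, its highest stimulated WT array, Klf4 also passed (0.51, adjusted p = 0.00944), as it did without Nos2-/- stimulated replicate 2 (0.46, adjusted p = 0.0464). Klf10 had 0.29 (95% CI 0.08 to 0.50, adjusted p = 0.156) and passed without Nos2-/- stimulated replicate 3 (0.41, adjusted p = 0.0158). Klf11 had 0.26 (95% CI 0.04 to 0.48, adjusted p = 0.243) and passed without Nos2-/- stimulated replicate 2 (0.40, adjusted p = 0.0167). Most of the 17 alternative settings run on each of these genes did not call it. Klf7 was called in 5 of them, Klf4 in 4, Klf10 in 1 and Klf11 in 1. For Klf5, Klf6 and Klf13 the intervals ran from -0.15 to 0.15, from -0.16 to 0.16 and from -0.10 to 0.17.

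The genes nearest in pattern to Klf2 and Klf3 across the 4 groups were ranked by likeness. Likeness was the root mean square difference of the group means after each gene's own mean was taken off, over 4 groups of 3 arrays and all 18193 genes. Those nearest to Klf2 were the sialyltransferase gene St8sia4 (0.14 log2 units), the receptor gene Gpr34 (0.17) and Mctp1 (0.21). Gpr34 averaged 5.72 in stimulated Nos2-/- and 4.60 in stimulated WT, against 7.03 in untreated Nos2-/- and 7.71 in untreated WT macrophages. The genes nearest to Klf3 were the integrin gene Itga9 (0.03), the TNF-family ligand gene Tnfsf8 (0.04) and the immediate early gene Ier2 (0.04). The genes nearest to Klf2 were thus farther from it, at 0.14 to 0.21, than those nearest to Klf3 were from Klf3. The distance was not scaled to the size of a gene's changes, which were larger for Klf2 than for Klf3. The likeness is of the 4 means, and no test was made of it. By limma, Itga9, Tnfsf8 and Ier2 did not pass for the difference in response (adjusted p = 0.0513, 0.145 and 0.196). St8sia4, Gpr34 and Mctp1 passed (adjusted p = 0.00315, 0.0016 and 0.0416), but were picked for a pattern that holds such a difference.

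Of 6 other KLF genes measured, 3 rose in Nos2-/- and 2 rose in WT macrophages, and none passed between the stimulated genotypes. Klf16 rose by 0.26 in Nos2-/- and 0.24 in WT macrophages, Klf17 by 0.28 in Nos2-/- and 0.23 in WT macrophages, and Klf14 by 0.24 in Nos2-/-, with a value of 0.13 in WT macrophages. The median of the 6 was 0.22 in Nos2-/- and 0.18 in WT macrophages. Among 7 Sp factors, which bind the same GC boxes, 2 rose and 1 fell in Nos2-/-, and 1 rose and 2 fell in WT macrophages. Sp1 fell by 0.27 in Nos2-/- and by 0.43 in WT macrophages, and Sp3 had a value of -0.02 in Nos2-/- and fell by 0.22 in WT macrophages. Sp7 rose by 0.22 in Nos2-/- and 0.31 in WT macrophages, and Sp6 rose by 0.36 in Nos2-/- with a value of 0.20 in WT macrophages. The median of the 7 was 0.01 in Nos2-/- and 0.14 in WT macrophages. No Sp factor passed between the stimulated genotypes, where 2.94% of all genes did. With stimulation 26.3% of all genes rose and 28.2% fell in Nos2-/-, and 29.6% rose and 28.4% fell in WT macrophages.

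The kinase cascade from MEK5 to ERK5 and the MEF2 factors is known to drive Klf2 and Klf4 in endothelial cells, and 8 of its genes were measured. Stimulation lowered 5 of them in each genotype, and raised 2 in Nos2-/- and 1 in WT macrophages. Of all genes, 28.2% fell and 26.3% rose in Nos2-/-, and 28.4% fell and 29.6% rose in WT macrophages. The median of the 8 was -0.52 in Nos2-/- and -0.59 in WT macrophages beside the medians of all genes given above. Mef2c averaged 5.59 ± 0.19 in stimulated Nos2-/-, against 10.03 ± 0.04 in untreated Nos2-/- macrophages, and 5.51 ± 0.28 in stimulated WT, against 10.24 ± 0.15 in untreated WT macrophages. Mef2a fell by 1.89 in Nos2-/- and 2.00 in WT macrophages, Mef2d by 0.86 in Nos2-/- and 0.78 in WT macrophages, and the upstream kinase gene Map3k3 by 0.38 in Nos2-/- and 0.47 in WT macrophages. Mapk7, which encodes ERK5, rose by 0.94 in each genotype. None of the 8 passed between the stimulated genotypes or between their responses, where the values ran from -0.16 to 0.13 for the stimulated groups and from -0.08 to 0.30 for the responses. Klf2 had 0.95 for the stimulated groups and 1.23 for the responses. The part of this pathway in the Klf2 values was not tested, and transcripts do not measure the activity of its kinases.

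**Figure D4:**
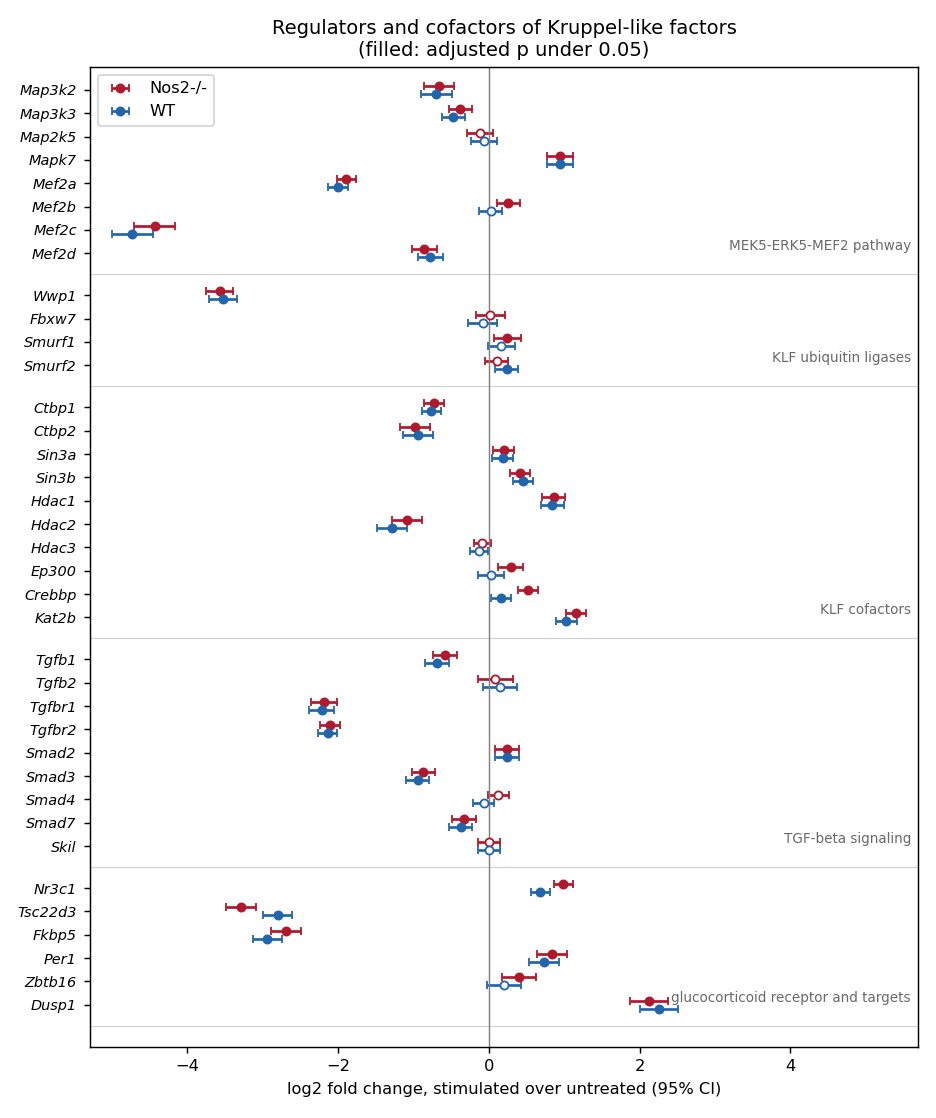
Change with LPS and IFNγ (horizontal axis, log2 stimulated over untreated) of genes upstream of KLFs and of their partners, with Nos2-/- in red above WT in blue. Points are limma estimates, whiskers 95% confidence intervals, and filled points passed an adjusted p of 0.05. Mef2c (-4.44 in Nos2-/-, -4.73 in WT) and the ubiquitin ligase gene Wwp1 (-3.57 in Nos2-/-, -3.53 in WT) fell most, and for most genes the estimates of the genotypes lie close together.

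Of 4 genes for ubiquitin ligases that act on KLF proteins, 1 rose and 1 fell in each genotype. Over all genes 54.5% passed in either direction in Nos2-/- and 58.0% in WT macrophages. The median of the 4 was 0.06 in Nos2-/- and 0.04 in WT macrophages. Wwp1, whose product targets KLF2 and KLF5, averaged 7.74 ± 0.10 in stimulated Nos2-/- and 8.01 ± 0.07 in stimulated WT, against 11.31 ± 0.14 in untreated Nos2-/- and 11.54 ± 0.10 in untreated WT macrophages. It fell in both genotypes and did not pass between the stimulated ones (-0.27, adjusted p = 0.123). Smurf1 rose by 0.24 in Nos2-/-, with a value of 0.17 in WT macrophages, and Smurf2 rose by 0.23 in WT macrophages, with a value of 0.10 in Nos2-/- macrophages. The transcripts do not measure the KLF proteins.

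Among 10 cofactor genes 6 rose and 3 fell in Nos2-/-, and 5 rose and 3 fell in WT macrophages, with a median of 0.24 in Nos2-/- and 0.095 in WT macrophages. Of all genes, 54.5% passed in either direction in Nos2-/- and 58.0% in WT macrophages. The CtBP gene Ctbp2, a partner of KLF3, fell by 0.98 in Nos2-/- and 0.94 in WT macrophages, and the deacetylase gene Hdac2 fell by 1.08 in Nos2-/- and 1.29 in WT macrophages. The acetyltransferase gene Crebbp was the single one of the 10 that passed between the stimulated genotypes, against 2.94% of all genes. It had 9.88 ± 0.015 in stimulated Nos2-/- and 9.60 ± 0.02 in stimulated WT macrophages (adjusted p = 0.0242). The Crebbp difference in response was 0.35 and did not pass (adjusted p = 0.0902). Ep300, a relative of Crebbp, rose by 0.29 in Nos2-/- and had a value of 0.03 in WT macrophages.

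Of 9 TGF-beta pathway genes, which act upstream of Klf10 and Klf11, stimulation lowered 5, raised 1 and left 3 not called in each genotype, where 28.2% of all genes fell in Nos2-/- and 28.4% in WT macrophages. Their median was -0.33 in Nos2-/- and -0.37 in WT macrophages. The receptor genes Tgfbr1 and Tgfbr2 fell by 2.19 and 2.11 in Nos2-/- and by 2.22 and 2.14 in WT macrophages. The inhibitory Smad7 fell by 0.33 in Nos2-/- and 0.37 in WT macrophages, and Smad2 rose by 0.24 in each genotype. None of the 9 passed between the stimulated genotypes.

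The glucocorticoid receptor and its targets, to which Klf9 belongs, were mixed: 4 of 6 rose and 2 fell in Nos2-/-, and 3 rose and 2 fell in WT macrophages, with a median of 0.62 in Nos2-/- and 0.44 in WT macrophages. The share of all genes that passed in either direction was 54.5% in Nos2-/- and 58.0% in WT macrophages. Tsc22d3, a glucocorticoid-induced gene also called GILZ, was, like Klf9, lowest in stimulated Nos2-/- macrophages. It averaged 6.40 ± 0.16 in stimulated Nos2-/- and 7.08 ± 0.12 in stimulated WT, against 9.69 ± 0.12 in untreated Nos2-/- and 9.88 ± 0.06 in untreated WT macrophages, so it was lower in stimulated Nos2-/- by 0.68 (adjusted p = 0.000801). The receptor gene Nr3c1 was higher in stimulated Nos2-/- by 0.26 (adjusted p = 0.027). The difference in response did not pass for Tsc22d3 (-0.48, adjusted p = 0.132) or for Nr3c1 (0.30, adjusted p = 0.14). Fkbp5, another target, fell by 2.69 in Nos2-/- and 2.94 in WT macrophages, while Per1 rose by 0.83 in Nos2-/- and 0.73 in WT macrophages. Neither passed between the stimulated genotypes, with values of 0.17 for Fkbp5 and -0.13 for Per1.

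Of 4 measured genes that KLF2 is known to induce in lymphocytes, endothelium or other cells, 2 were lower and none was higher in Nos2-/- than in WT macrophages after stimulation, against 1.91% of all genes lower and 1.03% higher. The median of the 4 was -0.26 in that comparison, and none of the 4 passed between the responses of the genotypes. The sphingosine phosphate receptor gene S1pr1 averaged 6.63 ± 0.25 in stimulated Nos2-/- and 7.30 ± 0.06 in stimulated WT (log2 -0.67), against 9.09 ± 0.03 in untreated Nos2-/- and 9.22 ± 0.08 in untreated WT macrophages. The cell cycle inhibitor gene Cdkn1a was lower by 0.43 in stimulated Nos2-/-, and its untreated value, which did not pass, was -0.29. Its response difference was -0.14 (adjusted p = 0.767), and that of S1pr1 was -0.54 (adjusted p = 0.131). Without a call in either comparison of the genotypes, the thrombomodulin gene Thbd fell by 1.74 in Nos2-/- and 1.64 in WT macrophages with stimulation.

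For 5 genes of alternative activation linked to KLF4 and STAT6, the median between the stimulated genotypes was -0.05. Arg1 was the single one of the 5 that passed there, against 2.94% of all genes. It averaged 9.18 ± 0.41 in stimulated Nos2-/- and 10.18 ± 0.13 in stimulated WT, against 4.56 ± 0.22 in untreated Nos2-/- and 4.36 ± 0.11 in untreated WT macrophages. Arg1 thus rose in both genotypes, opposite to Klf4, and was lower in stimulated Nos2-/- by 0.99. Its response difference was -1.20 (adjusted p = 0.0274). The mannose receptor gene Mrc1 fell by 2.64 in Nos2-/- and fell by 2.90 in WT macrophages, and Stat6 fell by 0.40 in Nos2-/- and by 0.44 in WT macrophages, in the direction of Klf4. Thus 2 of the 5 fell in each genotype, where 28.2% of all genes fell in Nos2-/- and 28.4% in WT macrophages. Retnla and Chil3 were not called. A link of these genes to Klf4 was not tested.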

How the data were processed

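RNA of 12 BMDM cultures was measured on Affymetrix mouse genome arrays. The authors processed the images with RMA in Partek, version not given in the sources used here, and deposited log2 values, with medians per array of 5.14 to 5.21 and no filter. Of 45101 probe sets, 64 controls, 932 naming several genes and 9160 naming none were left out. The other 34945 gave 18193 genes, 9010 of them with several probe sets, and the one with the highest mean was used. All genes were fitted with limma 3.58.1 in R 4.3.3 as 4 group means over 12 arrays, and p-values, two-sided, were adjusted over all 18193 genes, or over all 34945 probe sets where these are named. The study's own test was an analysis of variance with a 1.5-fold minimum and a false discovery rate of up to 0.5. The fit was tested on simulated data. The array number limits precision. Same-numbered arrays did not deviate together (r -0.26 to 0.21, over 0.1 in 2 of 18 pairs), so numbers were not used as pairs. The members, lists and tests were chosen with earlier results of these data known. Members and all their probe sets were named. From each list up to 4 genes were named, those called in any comparison with the largest difference between the stimulated genotypes, as were the 3 genes nearest in pattern to each member called between the responses. Mapk7 was named after its values were seen. Promoters are RefSeq's. Python 3.11.15, pandas 2.3.3 and matplotlib 3.10.9 prepared tables and figures.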

Additional observations from a re-analysis of the deposited data

Results flagged for a closer look

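The response to stimulation differed between genotypes for 2 of the 10 KLF genes, by limma's test of the difference itself. For Klf2 the difference in log2 response, Nos2-/- minus WT, was 1.2272 (adjusted p = 0.00482), with a fall in both genotypes. For Klf3 it was 0.5776 (adjusted p = 0.00514), with a rise in Nos2-/- macrophages. No stimulated Nos2-/- array overlapped the stimulated WT arrays for either gene. Chosen after its values were seen, Klf9 stands beside them: the brightest of its 7 probe sets missed the threshold for the difference in response (adjusted p = 0.0508), and the probe sets 1428288_at and 1456341_a_at passed with larger values, -0.87 and -0.88, against -0.43 for the brightest.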

How the results depend on the processing

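The falls of Klf2, Klf4 and Klf10, the rise of Klf7 with stimulation and the higher Klf2 in stimulated Nos2-/- were called in all 17 alternatives run on each. Of 3 KLF genes called between the stimulated genotypes, 1 was left with the 2 groups alone or at the methods' thresholds (1.5-fold, false discovery rate 0.5), and there were 5 without genes below the median signal. Leaving out 1 array gave 3 to 5, with 5 without Nos2-/- stimulated replicate 2 or replicate 3. Between the responses, 2 became 1 without moderation and 1 at the methods' thresholds, and 2 to 3 with 1 array left out. At the methods' thresholds the stimulation counts were 5 in Nos2-/- and 4 in WT macrophages, in place of 8 each. With 1 array left out they were 8 in Nos2-/- and 7 in WT macrophages, and those between the untreated groups were 0 in every setting. Signs turned for Klf5 in Nos2-/- macrophages with -0.0115 after quantile normalization and -0.0025 to 0.0852 with 1 array left out (the lowest without Nos2-/- stimulated replicate 3), and for Klf9 in WT macrophages with 0.0691 after quantile normalization. Other values near 0 that were not called also turned in some settings: Klf3 (-0.0514 to 0.1234) and Klf5 in WT macrophages, Klf11 in Nos2-/- macrophages (-0.111 to 0.1635), Klf5 and Klf6 between the stimulated genotypes, Klf5 between the untreated ones, and Klf5, Klf6 and Klf13 between the responses. The causes were not tested. Centring arrays on their medians moved the median change of all genes to 0.17 in Nos2-/- and 0.18 in WT macrophages, in place of 0.05 and 0.07.

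With the replicate number as a block, KLF counts were 3 between the stimulated genotypes, 2 between the responses, 8 in Nos2-/- and 7 in WT macrophages, and 0 between the untreated groups, and the fall of Klf9 in WT macrophages was the 1 call lost (adjusted p = 0.0559). Over all genes, calls between the stimulated genotypes numbered 535, with 234 for the 2 groups alone, 905 probe sets with each tested, and 175 at the methods' thresholds. Between the responses they numbered 178, with 108 without moderation, 302 with an intensity trend, 294 without dim genes, 277 probe sets, and 93 to 115 without WT untreated replicate 1, 2 or 3, WT stimulated replicate 1 or Nos2-/- untreated replicate 1. With stimulation they numbered 9922 in Nos2-/- and 10559 in WT macrophages, with 17977 and 18885 probe sets, and 4843 and 4717 at the methods' thresholds. Between the untreated groups they numbered 2, with 0 to 5.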
